A study of Homo sapiens with 6 samples.

Results

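PSMD6-AS2 is a long noncoding RNA gene on chromosome 3, and it is described here with PSMD6, whose gene it enters from the opposite strand, and with ATXN7, THOC7 and PRICKLE2, which lie near it. These 5 genes were chosen from results of the same counts, on the difference of PSMD6-AS2 between the groups and on their position. They are 5 of the 58825 genes of the count table, and all 5 were among the 19528 genes kept by edgeR's filter on low counts. The RNA came from HGC-27, a cell line of human gastric cancer, and was read in 6 libraries. HGC-27 cells infected by a retrovirus carrying GC0643 gave 3 libraries, and HGC-27 cells with the vector gave the other 3; stable cells were selected with puromycin. GC0643 is a gene predicted from sequence outside the reference genome. It was not analysed here, so these counts do not check the labels.

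A long noncoding RNA does not encode a protein, and an antisense RNA is one transcribed from the strand opposite to another gene. Antisense RNAs are often present at few copies per cell, and only some are known to act on the gene they overlap. PSMD6 encodes a subunit of the lid of the proteasome's regulatory particle, which recognises and unfolds proteins marked with ubiquitin before they are degraded. ATXN7 encodes ataxin-7, a subunit of SAGA, a complex that modifies histones during transcription, and its repeat expansion causes a hereditary ataxia. THOC7 encodes a subunit of the THO complex, which is the core of TREX and couples transcription to mRNA export. PRICKLE2 encodes a cytoplasmic protein of planar cell polarity, the alignment of cells within the plane of a tissue. No function is given here for PSMD6-AS2.

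In GRCh38 as annotated by GENCODE version 44, PSMD6-AS2 (ENSG00000239653) lies on the forward strand at chr3:64004022-64012148. Its single transcript has 3 exons and 2456 bases. The first exon, of 2047 bases at chr3:64004022-64006068, starts 559 bases past the end of ATXN7 (ENSG00000163635, chr3:63863155-64003462), which is transcribed in the same direction. The second exon has 57 bases at chr3:64009697-64009753. The third, of 352 bases at chr3:64011797-64012148, lies inside PSMD6 (ENSG00000163636, reverse strand, chr3:64010550-64024010). All 352 of those bases are exonic in PSMD6, but in 1 of its 12 annotated transcripts only, ENST00000463139, a transcript with a retained intron. Overlapped bases make up 14.3% of the exonic bases of PSMD6-AS2. Another antisense gene, PSMD6-AS1 (ENSG00000243410, chr3:64011964-64016246), has 441 exonic bases, all of them within exons of PSMD6. Of these, 79 also lie within the third exon of PSMD6-AS2, on the same strand. THOC7 (ENSG00000163634, reverse strand, chr3:63833870-63863868) starts head to head with ATXN7. PRICKLE2 (ENSG00000163637, reverse strand, chr3:64092236-64445476) lies 80087 bases beyond PSMD6-AS2.

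**Figure D1:**
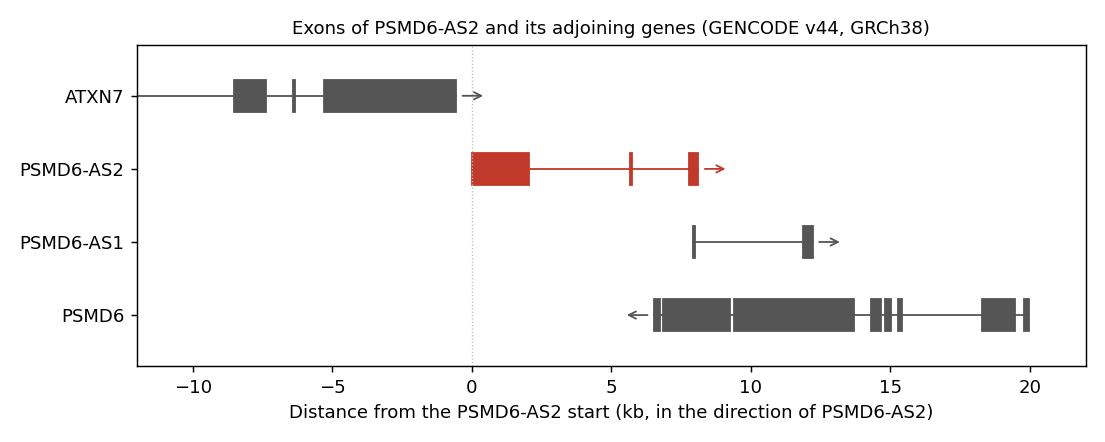
Exons of ATXN7, PSMD6-AS2, PSMD6-AS1 and PSMD6 (boxes; all annotated transcripts of a gene merged) against the distance in kb from the PSMD6-AS2 start, with arrows for the direction of transcription. The first exon of PSMD6-AS2, 2047 bases long, meets no exon of another gene, and its last exon, 352 bases long, lies within exons of PSMD6.

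The 4 splice sites of PSMD6-AS2 are shown because a spliced transcript has a direction of its own, which a count without strand does not carry. They were read from GRCh38 on the forward strand, 5′ to 3′, with the intron's first or last pair of bases in capitals. All 4 carry the usual GT at the donor or AG at the acceptor.
Donor of intron 1, chr3:64006061-64006082: aaagagagGTaagggaaggcat
Acceptor of intron 1, chr3:64009679-64009702: cattcttcaatcttttAGcaaatc
Donor of intron 2, chr3:64009746-64009767: cgtaaaagGTaagccaaatccg
Acceptor of intron 2, chr3:64011779-64011802: tttatctccacattacAGttacga

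The promoter windows of PSMD6-AS2, PSMD6 and ATXN7 follow, since the first gene is set against the others throughout. They run from 250 bases before to 50 bases after the start in RefSeq (GRCh38.p14), 5′ to 3′ on the gene's own strand. Capitals mark AATAAA, the letters of the common polyadenylation signal, in the window of PSMD6-AS2, and CCGGAAG, an ETS-type motif, in the others.
PSMD6-AS2, chr3:64003772-64004071, forward strand: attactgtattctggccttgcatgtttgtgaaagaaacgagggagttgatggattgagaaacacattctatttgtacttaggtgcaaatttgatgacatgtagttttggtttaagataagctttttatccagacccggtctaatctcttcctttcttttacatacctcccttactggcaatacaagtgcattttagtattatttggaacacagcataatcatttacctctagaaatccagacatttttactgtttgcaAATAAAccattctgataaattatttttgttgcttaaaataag
PSMD6, chr3:64023445-64023744, reverse strand: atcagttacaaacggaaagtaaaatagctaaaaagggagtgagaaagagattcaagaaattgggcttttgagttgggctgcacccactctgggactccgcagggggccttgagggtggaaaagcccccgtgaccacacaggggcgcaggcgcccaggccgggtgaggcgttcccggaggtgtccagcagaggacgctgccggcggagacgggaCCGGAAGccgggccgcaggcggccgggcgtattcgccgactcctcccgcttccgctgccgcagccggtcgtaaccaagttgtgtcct
ATXN7, chr3:63863617-63863916, forward strand: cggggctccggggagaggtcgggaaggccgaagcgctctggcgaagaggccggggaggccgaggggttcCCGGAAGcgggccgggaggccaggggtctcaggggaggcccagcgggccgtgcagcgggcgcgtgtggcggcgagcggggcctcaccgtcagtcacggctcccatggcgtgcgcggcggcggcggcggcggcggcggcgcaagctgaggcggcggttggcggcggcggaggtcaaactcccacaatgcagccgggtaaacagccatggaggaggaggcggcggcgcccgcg

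The window of PSMD6-AS2 was poor in G and C. Its GC content was 33%, and 2.59% of the 35116 RefSeq windows were lower. It held 2 CpG pairs, which is 0.24 of the number its base composition would give. The PSMD6 window had 62.7% GC and 25 CpG pairs, at 0.86 of that number. The ATXN7 window had 77.3% GC and 43 CpG pairs, and it also spans the annotated start of THOC7 at position 63863868. RefSeq gives ATXN7 6 start windows in all, of which this is the one at the shared start, and the table holds 2 for PRICKLE2.

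Motifs were searched one at a time on both strands, so that matches may overlap. CCGGAAG was found once in the PSMD6 window and once in the ATXN7 window shown, against 10.3% of all windows with at least 1 match. CCAAT was found once in the PSMD6 window, against 34.6% of all windows. TGANNNNGC, the core letters of the antioxidant response element, was found once in the PSMD6-AS2 window and once in the ATXN7 window, against 41.8%. The PSMD6-AS2 window held no CCAAT and no CCGGAAG. The ATXN7 window held no CCAAT either. None of the 3 windows shown held the remaining motifs searched, the GC box GGGCGG (found in 45% of all windows), the TATA box TATAAA (11.5%) and the cyclic AMP response element TGACGTCA (1.85%). AATAAA, searched on the forward strand and added after the sequence was seen, was found once in the PSMD6-AS2 window and in 9.84% of all windows. These matches describe letters and are not measured sites.

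Total counts were 20376722 to 24069166 per library, and the median log2 fold change of all tested genes was 0.02. The study's methods speak of independent replications for its in vitro experiments in general, and do not say that the 3 libraries of a group came from separate cultures, so p-values measure the spread between these libraries, which may be technical. Libraries did not fall apart by group. A chi-square per gene over all tested genes was 4.62 between GC0643 replicate 2 and vector replicate 2, against 5.72 for the closest pair within the GC0643 group and 12.8 for the closest within the vector group. Vector replicate 3 stood furthest apart, at 18.5 to 60.6 from the others. The libraries also differed in GC balance, the median log2 deviation of the 25% of tested genes lowest in GC minus that of the 25% highest. It was 0.36, 0.13 and 0.33 in GC0643 replicates 1, 2 and 3, and -0.35, 0.12 and -0.58 in vector replicates 1, 2 and 3. Markers of epithelium were low in these cells: EPCAM and CDH1 stayed under 0.4 CPM (counts per unit of sequencing depth, with library totals scaled by TMM) and KRT8 between 3.87 and 7.84 CPM. Of 6 gastric mucosa markers, TFF2, GKN1 and PGC were at 0 in all 6 libraries, and the 6 summed to 0.28 to 0.59 CPM in GC0643 libraries and 0.19 to 0.99 CPM in vector libraries. Of 4 markers of a mesenchymal state, VIM stood at 3061 to 3371 CPM, FN1 at 31.8 to 67.6 CPM and ZEB1 at 20.9 to 33.6 CPM, while CDH2 stayed between 0.049 and 0.61 CPM. Of the 3 that were tested, 2 were higher in GC0643 libraries at p under 0.05 without adjustment and 0 lower. Over all tested genes the same threshold called 13.1% higher and 5.26% lower. The median log2 fold change of these 3 markers was 0.40, and no value corrected for GC content is given for them. The part of these markers in the results was not tested. Of the leukocyte markers CD3E was at 0 in all 6 libraries, and the 4 summed to 3.87 to 5.13 CPM in GC0643 libraries and 4.53 to 5.86 CPM in vector libraries.

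PSMD6-AS2 was higher in all 3 GC0643 libraries than in any vector library. It had 21, 26 and 25 counts in GC0643 replicates 1, 2 and 3, against 6, 4 and 6 counts in vector replicates 1, 2 and 3. The groups did not overlap, with the lowest GC0643 library at 21 counts and the highest vector libraries at 6. In CPM these were 0.980, 1.23 and 1.23 in GC0643 libraries and 0.296, 0.194 and 0.250 in vector libraries. The mean was 1.15 ± 0.144 CPM in GC0643 libraries and 0.246 ± 0.0508 CPM in vector libraries (SD, n = 3 each), a ratio of 4.65. The fitted log2 fold change was 2.19 with a standard error of 0.42. It ranked 3rd of 19528 genes by log2 fold change, and it is this contrast from which PSMD6-AS2 was chosen, so no test is given. In bulk RNA, more cells with the transcript and more transcript per cell cannot be told apart.

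The counts behind these values were small. The exact Poisson interval at 95% was 13.0 to 32.1 for the 21 counts of GC0643 replicate 1 and 17.0 to 38.1 for the 26 of replicate 2. For the vector libraries it was 2.20 to 13.1 at 6 counts and 1.09 to 10.2 at 4 counts. Summed over the group, 72 counts in GC0643 libraries stood against 16 in vector libraries. After scaling by library totals the ratio was 4.65. PSMD6-AS2 was chosen on these counts, so the ratio is a description and no interval is given for it. The intervals of single libraries cover counting error only, since reads were not counted by molecular identifiers. The count minimum of 10 was reached in 3 of 3 GC0643 libraries and in 0 of 3 vector libraries. PSMD6-AS2 thus entered the fit through the group in which it was high, as did 22 tested genes in all, itself included.

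**Figure D2:**
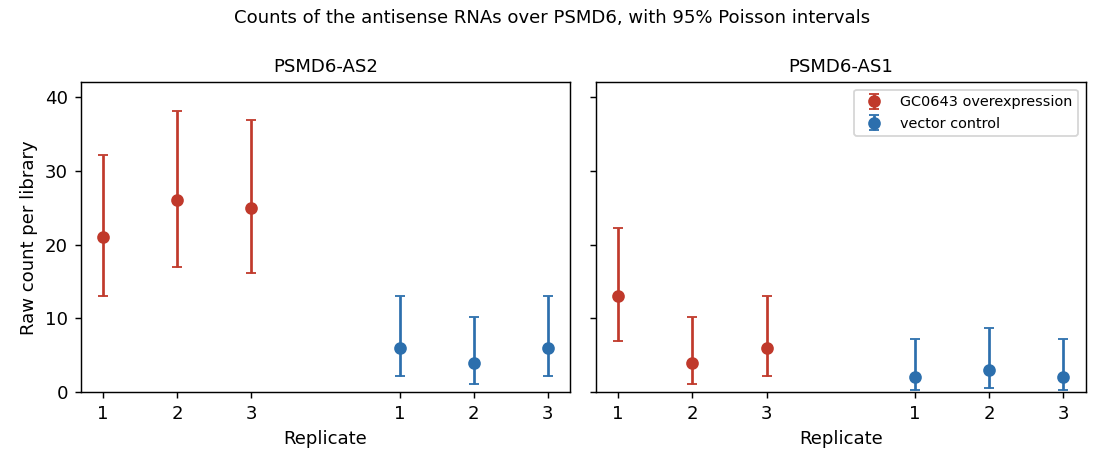
Raw counts per library of PSMD6-AS2 (left) and PSMD6-AS1 (right), with GC0643 overexpression in red, vector control in blue and exact 95% Poisson intervals as bars. PSMD6-AS2 had 21 to 26 counts in GC0643 libraries and 4 to 6 in vector libraries; PSMD6-AS1 had 4 to 13 in GC0643 libraries and 2 or 3 in vector libraries.

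PSMD6-AS1, the other antisense gene over PSMD6, was singled out for its position and after its counts were seen. It had 13, 4 and 6 counts in GC0643 replicates 1, 2 and 3, and 2, 3 and 2 counts in vector replicates 1, 2 and 3. Every GC0643 library was above every vector library, by as little as 1 count. Such a lack of overlap was seen in 11.8% of all tested genes. The sums for PSMD6-AS1 were 23 counts in GC0643 libraries and 7 in vector libraries, a scaled ratio of 3.39. It was too low for the filter and was not tested. Since its exons lie within exons of PSMD6, and since the strand used in counting is not stated for these libraries, its reads cannot be told apart from those of PSMD6. The featureCounts options in the study's methods belong to its tumour RNA-seq; they count a read for each gene it overlaps and set no strand. For PSMD6-AS2 the same holds for the 352 bases of its last exon, while the 2047 bases of its first exon meet no annotated exon of another gene. Of those 352 bases, 79 are also exonic in PSMD6-AS1, on the same strand, and make up 17.9% of its exonic bases. The counts of the 2 antisense genes may therefore share reads and are not independent. The counts are per gene and do not say which exon they came from.

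PSMD6 was the most abundant of the 5 genes by CPM. It had 1058, 1012 and 1044 counts in GC0643 replicates 1, 2 and 3, and 821, 1015 and 706 counts in vector replicates 1, 2 and 3. In CPM, GC0643 libraries lay at 49.4, 47.8 and 51.5, close to each other, and vector libraries at 40.4, 49.2 and 29.4. The groups overlapped, as vector replicate 2 was above GC0643 replicate 2. The mean was 49.5 ± 1.86 CPM in GC0643 libraries and 39.7 ± 9.97 CPM in vector libraries (SD, n = 3 each). The log2 fold change was 0.32 with a standard error of 0.16. It was 0.14 without vector replicate 3 and 0.51 without vector replicate 2. The vector libraries low in PSMD6, replicates 1 and 3, were those with a GC balance below 0. With counts corrected for GC content by loess, the log2 fold change was 0.16.

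PSMD6-AS2 and PSMD6 were set side by side within libraries. GC0643 replicate 2 and vector replicate 2 were close in GC balance (0.13 in the GC0643 library and 0.12 in the vector library) and close in PSMD6 (47.8 CPM in the GC0643 library and 49.2 CPM in the vector library). In the same pair PSMD6-AS2 had 1.23 CPM in the GC0643 library and 0.194 CPM in the vector library. This is a single pair, picked after its values were seen, and the part of GC balance in the difference was not tested; with the correction for GC content the log2 fold change of PSMD6-AS2 was 1.94. PSMD6-AS2 counts came to 1.99%, 2.57% and 2.40% of PSMD6 counts in GC0643 replicates 1, 2 and 3, against 0.731%, 0.394% and 0.850% in vector replicates 1, 2 and 3. The ratio does not depend on how libraries are scaled, but its upper term is the count on which PSMD6-AS2 was chosen, so that the gap between the groups is a description. The mean log2 ratio was -5.44 in GC0643 libraries and -7.32 in vector libraries, a difference of 1.88. Leaving out each library in turn gave differences of 1.55 to 2.1.

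**Figure D3:**
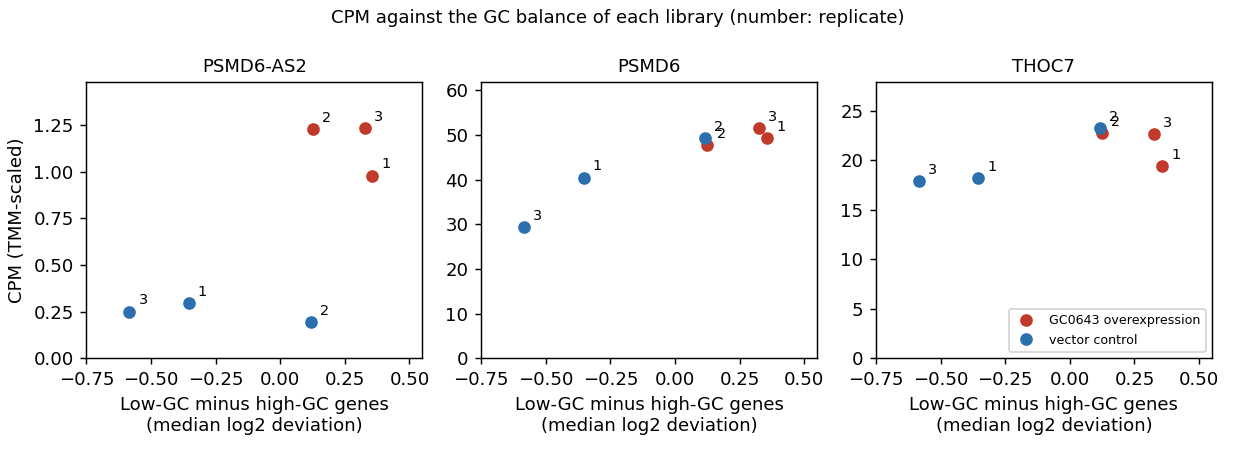
CPM of PSMD6-AS2, PSMD6 and THOC7 in each library (vertical axes, from 0) against the GC balance of the library, the median log2 deviation of low-GC genes minus that of high-GC genes; GC0643 overexpression in red, vector control in blue, numbers for replicates. PSMD6 was lowest, at 40.4 and 29.4 CPM, in the vector libraries with a GC balance of -0.35 and -0.58.

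ATXN7, which ends just before PSMD6-AS2 on the same strand, was at about the same level in both groups before correction for GC content. It had 287, 203 and 265 counts in GC0643 replicates 1, 2 and 3, and 256, 247 and 318 counts in vector replicates 1, 2 and 3. The lowest value belonged to GC0643 replicate 2, at 9.58 CPM. The mean was 12.0 ± 2.11 CPM in GC0643 libraries and 12.6 ± 0.619 CPM in vector libraries (SD, n = 3 each). The log2 fold change was -0.07 with a standard error of 0.17, and it was 0.06 without GC0643 replicate 2. With the correction for GC content it was -0.25. PSMD6-AS2 counts were 7.32%, 12.8% and 9.43% of ATXN7 counts in GC0643 replicates 1, 2 and 3, and 2.34%, 1.62% and 1.89% in vector replicates 1, 2 and 3. The difference in the mean log2 ratio was 2.32. Reads that run on past the annotated end of ATXN7 would fall on the first exon of PSMD6-AS2. Whether any did was not tested, since counts per gene hold no positions. The level of ATXN7 in each library is the measured value beside it.

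THOC7 shares its start region with ATXN7 and is transcribed away from it. It had 416, 483 and 459 counts in GC0643 replicates 1, 2 and 3, and 369, 479 and 430 counts in vector replicates 1, 2 and 3. The groups overlapped, and vector replicate 2 was the highest library at 23.2 CPM. The mean was 21.6 ± 1.91 CPM in GC0643 libraries and 19.8 ± 3.01 CPM in vector libraries (SD, n = 3 each). The log2 fold change was 0.13 with a standard error of 0.15. The canonical transcript of THOC7 was the lowest in GC of the 5, at 38.0%, and 7.82% of tested genes were lower. With the correction for GC content the log2 fold change was -0.18. The exons of THOC7 and ATXN7 overlap by 2 bases.

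PRICKLE2 was level apart from a single library. It had 327, 205 and 196 counts in GC0643 replicates 1, 2 and 3, and 209, 205 and 253 counts in vector replicates 1, 2 and 3. GC0643 replicate 1 was high at 15.3 CPM, and the other 5 libraries lay between 9.66 and 10.5 CPM. The mean was 11.5 ± 3.23 CPM in GC0643 libraries and 10.3 ± 0.289 CPM in vector libraries (SD, n = 3 each). The log2 fold change was 0.17 with a standard error of 0.19, and it was -0.08 without GC0643 replicate 1. PRICKLE2-AS1 (ENSG00000241111), an antisense gene, shares 3362 exonic bases with PRICKLE2, which is 22.8% of PRICKLE2 and 51.7% of PRICKLE2-AS1. It had 138, 81 and 92 counts in GC0643 replicates 1, 2 and 3, and 93, 100 and 120 counts in vector replicates 1, 2 and 3. The same GC0643 library was the highest in both genes, and reads on the shared bases cannot be told apart.

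**Figure D4:**
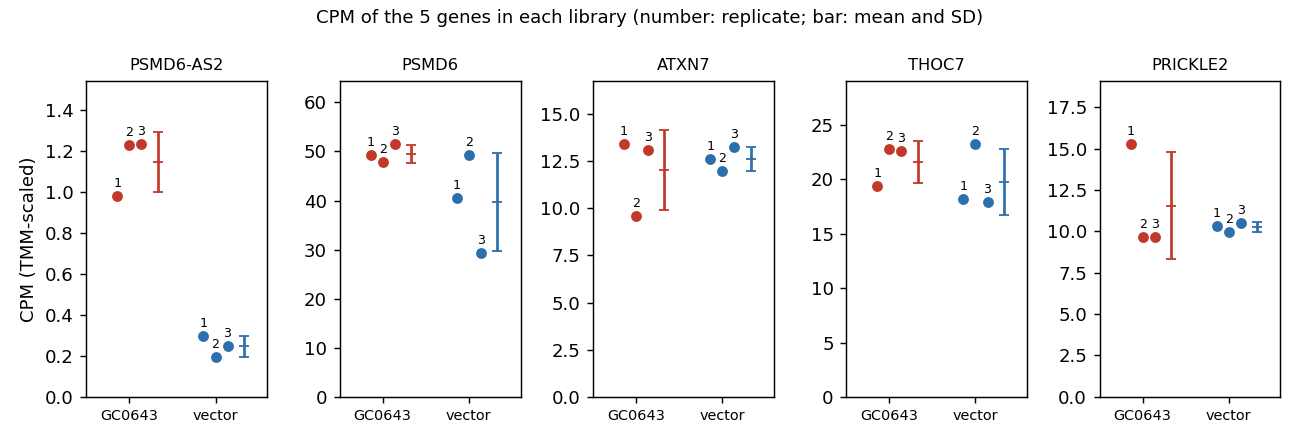
CPM of the 5 genes in each library, on axes that start at 0 (points, numbered by replicate; bars, mean and SD of 3 libraries; GC0643 overexpression in red, vector control in blue). The groups were apart for PSMD6-AS2, at 0.980 to 1.23 CPM in GC0643 libraries and 0.194 to 0.296 CPM in vector libraries, and overlapped for the other 4 genes.

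The groups did not overlap in 1 of the 5 genes, PSMD6-AS2. Over all 19528 genes they did not overlap in 11.8% with GC0643 higher and in 10.5% with GC0643 lower. By edgeR's quasi-likelihood test with no adjustment, at p under 0.05, 13.1% of all genes were higher in GC0643 libraries and 5.26% lower. At an adjusted p under 0.05 the share was 0%, with 0 genes. The likelihood ratio test of edgeR passed 16 genes and DESeq2 passed 1. Nothing is read from these shares for the 5 genes, which were chosen from the same contrast. Across 16 other fits the log2 fold change of PSMD6-AS2 lay between 1.94 and 2.32 and that of PSMD6 between 0.14 and 0.51, positive in all 16 for both. ATXN7 lay between -0.26 and 0.06, THOC7 between -0.19 and 0.26 and PRICKLE2 between -0.08 and 0.28, so that these 3 took both signs.

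**Figure D5:**
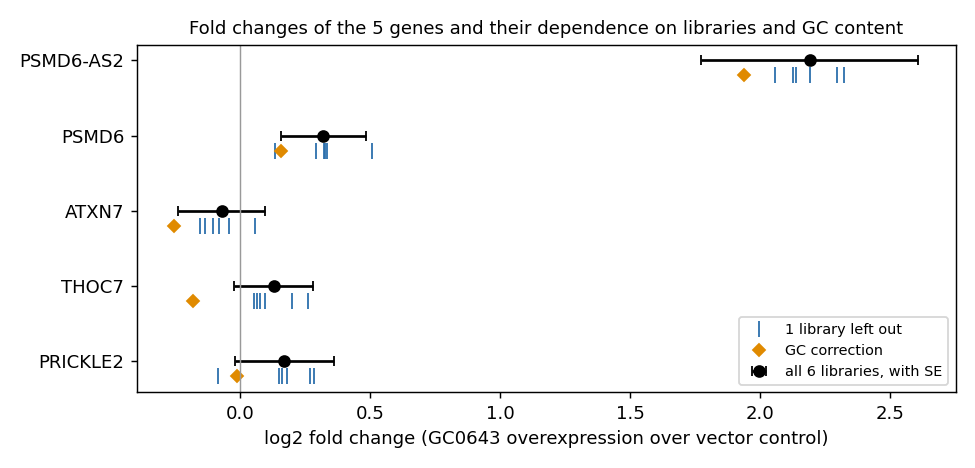
Log2 fold change of the 5 genes, GC0643 overexpression over vector control, with all 6 libraries (black, with standard error), with 1 library left out (blue marks) and with counts corrected for GC content (orange). PSMD6-AS2 stayed between 1.94 and 2.32 in these fits, while THOC7 was 0.13 with all libraries and -0.18 after the correction.

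Levels were compared between the genes as CPM per kb of exonic length. THOC7 was first, with 12.4 CPM per kb in GC0643 libraries and 11.3 in vector libraries, and PSMD6 second, with 5.47 in GC0643 libraries and 4.38 in vector libraries. ATXN7 had 0.784 CPM per kb in GC0643 libraries and 0.823 in vector libraries, and PRICKLE2 had 0.782 in GC0643 libraries and 0.696 in vector libraries. ATXN7 and PRICKLE2 changed places in GC0643 replicates 1 and 2, and their ranges overlapped. PSMD6-AS2 was last in all 6 libraries, with 0.467 CPM per kb in GC0643 libraries and 0.100 in vector libraries. The exonic length of PSMD6 counts 9056 bases over all annotated transcripts, while its canonical transcript has 1362. By the length of the canonical transcript PSMD6 came first in all 6 libraries, with 36.4 CPM per kb in GC0643 libraries and 29.1 in vector libraries, ahead of THOC7 with 24.2 in GC0643 libraries and 22.2 in vector libraries. By that length ATXN7 was also above PRICKLE2 in all 6 libraries. ATXN7 had 1.70 CPM per kb in GC0643 libraries and 1.78 in vector libraries, and PRICKLE2 had 1.16 in GC0643 libraries and 1.03 in vector libraries.

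Of the genes within 1 Mb of PSMD6-AS2, 26 others are in the table. Counts were found for 17 of them, 9 were at 0 in every library, and 5 were tested. None of the 5 was higher or lower at an unadjusted p under 0.05 in edgeR's quasi-likelihood test with all libraries. Over all tested genes that test called 13.1% higher and 5.26% lower. Without vector replicate 1 the count higher was 1, beside 827 of all genes tested. Without vector replicate 2 it was 2, beside 4564. The median log2 fold change of the 5 was 0.04, against 0.02 over all tested genes. Its sign was not stable, with -0.19 after the GC correction, -0.15 without GC0643 replicate 1, -0.17 for the 3 genes within 0.5 Mb and 0.31 for the 8 within 2 Mb. ADAMTS9, a secreted metalloprotease, had 583, 494 and 629 counts in GC0643 replicates 1, 2 and 3, and 516, 583 and 358 counts in vector replicates 1, 2 and 3. Its log2 fold change was 0.25 with a standard error of 0.20 (edgeR, adjusted p = 0.46), and the groups overlapped. ADAMTS9-AS1, antisense to it, had 43, 48 and 39 counts in GC0643 replicates 1, 2 and 3, and 32, 35 and 14 counts in vector replicates 1, 2 and 3. The groups did not overlap, with GC0643 higher, as in 11.8% of all tested genes. Its log2 fold change of 0.70 with a standard error of 0.35 did not pass (edgeR, adjusted p = 0.29). Both genes were lowest in vector replicate 3.

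On the far side of PSMD6, PRICKLE2-AS1 under ENSG00000241111 had a log2 fold change of 0.04 (edgeR, adjusted p = 0.93). A second gene of that name, ENSG00000241572, lies wholly within exons of the first. It had 28, 16 and 27 counts in GC0643 replicates 1, 2 and 3, and 30, 33 and 39 counts in vector replicates 1, 2 and 3. All GC0643 libraries were below all vector libraries, as in 10.5% of all tested genes. Its log2 fold change of -0.47 did not pass (edgeR, adjusted p = 0.39). A p that misses the threshold does not show that these neighbours were level.

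The partners of the 4 protein-coding genes were taken from lists of their complexes, the 4 genes themselves set apart. Of 18 other subunits of the 19S regulatory particle, 5 were higher and 2 lower before adjustment (p under 0.05), with a median log2 fold change of 0.07. Over all tested genes, the same threshold called 13.1% higher and 5.26% lower, with a median of 0.02. PSMC6, an ATPase of the base, had 56.7 ± 7.85 CPM in GC0643 libraries and 38.0 ± 11.5 CPM in vector libraries (SD, n = 3 each), and a log2 fold change of 0.58. PSMD14, the deubiquitinase of the lid, had 51.9 ± 2.55 CPM in GC0643 libraries and 38.6 ± 7.25 CPM in vector libraries, and a log2 fold change of 0.43. PSMD8, another lid subunit, had 109.2 ± 9.14 CPM in GC0643 libraries and 136.0 ± 12.0 CPM in vector libraries, and a log2 fold change of -0.32. None passed adjustment over all genes (edgeR, adjusted p = 0.26 for each of the 3). PSMD6 itself, at 0.32, lay between the last of these and the others.

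Of 21 other SAGA subunits, 3 were higher and 1 lower by the same unadjusted threshold, close to the 13.1% higher and 5.26% lower of all genes, with a median of -0.05 for the log2 fold change. TAF9B had a log2 fold change of 0.44 and TAF9 one of 0.36, both subunits that SAGA shares with or resembles in the general factor TFIID. TADA1, a subunit of the core of SAGA, had 0.48. Of 15 other genes of TREX and mRNA export, 5 were higher and 0 lower, beside 13.1% and 5.26% of all genes, with a median of -0.02. The first by p was THOC1, another subunit of the THO complex, with 39.3 ± 5.11 CPM in GC0643 libraries and 27.3 ± 5.06 CPM in vector libraries (SD, n = 3 each) and a log2 fold change of 0.53. FYTTD1, an export adaptor, had 0.45 and ZC3H11A, a zinc finger protein that associates with TREX, had 0.42. Adjusted p was 0.26 by edgeR for each of these 6 genes.

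Of 13 other genes of core planar cell polarity, 1 was higher and 1 lower by that threshold, beside 13.1% and 5.26% of all genes, with a median of -0.10. FZD3, a receptor of the pathway, had 19.8 ± 1.48 CPM in GC0643 libraries and 14.3 ± 1.86 CPM in vector libraries (SD, n = 3 each), and a log2 fold change of 0.47. DVL1, a cytoplasmic transducer, had -0.29 and CELSR1, an atypical cadherin, had -0.22. Adjusted p was 0.26 for FZD3 and DVL1 and 0.34 for CELSR1 (edgeR). The genes named from the 4 lists with positive values had 34.9% to 42.2% GC in their canonical transcripts, and those with negative values 57.4% to 67.5%. These genes were picked by smallest p, and the part of GC content in their values was not tested. After correction for GC content 0 genes were higher and 0 lower by that threshold in each of the 4 lists, and over all 19528 genes the counts were 561 higher and 633 lower. With 1 library left out, the count higher ran from 2 to 8 in the 19S list, 0 to 5 in SAGA, 2 to 5 in TREX and 1 to 2 in planar cell polarity, and over all genes from 827 to 4564. The count lower ran from 0 to 2 in the 19S list, 0 to 4 in SAGA, 0 to 2 in TREX and 0 to 5 in planar cell polarity, and over all genes from 367 to 2842. The highest count in each direction was that without vector replicate 2 in each list, and in the 19S list 2 lower genes were also counted without vector replicate 3 and without GC0643 replicate 2.

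Genes with the profile most like that of PSMD6-AS2 were sought by Pearson's r of log2 CPM over the 6 libraries, among 17360 tested genes with a mean of at least 1 CPM. The 6 points share 2 groups, so any gene whose groups are well apart scores high, and r is given as a description. There were 107 genes with r over 0.9, and 74 with a negative r of more than 0.9 in size. The order among them also follows small differences in PSMD6-AS2 within a group, 21 to 26 counts in GC0643 libraries and 4 to 6 in vector libraries. The Poisson intervals of these counts overlapped within each group, so that order is not firm. The most like was SFRP4, a secreted modulator of Wnt signalling, with r = 0.99. It had 49.97, 53.1 and 52.7 CPM in GC0643 replicates 1, 2 and 3, and 39.9, 39.3 and 39.8 CPM in vector replicates 1, 2 and 3. Next came LINC01060, a long noncoding RNA, SLC13A4, a sodium-dependent sulfate transporter, and THAP5, a zinc finger protein, each with r = 0.98, and GPATCH11, a G-patch protein, with r = 0.97. Their mean CPM in GC0643 libraries was 1.29 to 1.68 times that in vector libraries, SFRP4 included, against 4.65 times for PSMD6-AS2. At the other end stood RASL10B, a Ras-like protein, and TSGA10, a testis gene, each with r = -0.99. None of these 7 genes lies on chromosome 3. The neighbours were further from this profile, with r = 0.56 for PSMD6, 0.37 for THOC7, 0.20 for PRICKLE2 and -0.28 for ATXN7.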

How the data were processed

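RNA of HGC-27 cells was sequenced in 6 libraries made with the NEBNext Ultra kit. The authors trimmed reads with Trimmomatic 0.32, aligned them with HISAT2 2.1.0 to GRCh38 and counted them with featureCounts 2.0.0, per the labels. They deposited whole-number counts per Ensembl gene. The counting options are given for the study's tumour RNA-seq, where a read counts for every gene it overlaps and no strand is set; whether they hold for these libraries is not stated, and counts of antisense pairs may mix. All columns were mapped to samples, which left 0 aside.

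Of 58825 genes, 58472 matched GENCODE version 44 by ID. In R 4.3.3, edgeR 4.0.16 kept 19528 genes (filterByExpr, count minimum 10), scaled them by TMM and fitted the quasi-likelihood model with group as the only term; adjusted p-values are Benjamini-Hochberg values over all 19528. The code was tested on simulated counts. Alternatives used limma 3.58.1, DESeq2 1.42.0, other scalings and filters, a replicate block, a loess correction for GC content (span 0.3, prior count 1) and 1 library left out. Figures were drawn in Python 3.11.15 with matplotlib 3.10.9. Promoters came from RefSeq (GRCh38.p14).

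The 5 genes and the lists were chosen with earlier results of these data known. Named genes were these 5, other genes within 1 Mb with a mean of at least 1 CPM, up to 3 genes of each complex list with the smallest p, and the 5 genes with the highest and the 2 with the lowest r to PSMD6-AS2. PSMD6-AS1 was added. GC0643 was not analysed here.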

Additional observations from a re-analysis of the deposited data

How the results depend on the processing

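With 3 libraries a group and 4 to 26 counts of PSMD6-AS2 per library, depth limits its fold change more than that of the other 4 genes. Its log2 fold change was 2.19, and 1.94 with the GC correction and 1.94 with the replicate block and GC correction together. THOC7 gave 0.13, and -0.18 and -0.19 in those same fits. ATXN7 gave -0.07, and -0.25 and -0.26 in them, outside its range with 1 library left out. No other fit moved a value of the 5 genes by more than the spread between libraries. Leaving out each library in turn gave 2.06 to 2.32 for PSMD6-AS2, 0.14 to 0.51 for PSMD6, -0.16 to 0.06 for ATXN7, 0.05 to 0.26 for THOC7 and -0.08 to 0.28 for PRICKLE2.

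Over all tested genes 0 passed an adjusted p under 0.05. The number was 1 with DESeq2's size factors, 1 with DESeq2, 16 with the likelihood ratio test, 224 with no filter on low counts, 24 with the replicate block, 2 with the block and GC correction, and 0 to 3813 with 1 library left out, the highest without vector replicate 2. At an unadjusted p under 0.05, 2553 genes were higher, and 561 with the GC correction, 395 with the block and GC correction, and 827 to 4564 with 1 library left out. Lower were 1028 genes, and 314 with the replicate block, 633 with the GC correction, 391 with both, and 367 to 2842 with 1 library left out. The causes were not tested. Same-numbered libraries did not deviate together (correlations of -0.21, -0.03 and -0.31 over genes), so the numbers name libraries and do not pair them, and the block is given only here.

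Within 1 Mb of PSMD6-AS2 the median log2 fold change of the 5 tested genes was 0.04, and -0.19 with the GC correction, -0.21 with the block and GC correction, and -0.15 to 0.18 with 1 library left out. It was -0.17 for 3 genes within 0.5 Mb and 0.31 for 8 genes within 2 Mb. Of those 8, 2 were higher at an unadjusted p under 0.05, beside 13.1% of all tested genes. Within 1 Mb the count higher was 1 with limma and 1 with the replicate block, beside 2822 and 1945 of all genes. With no filter on low counts it was 2, beside 3268.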
